A study of Mus musculus with 95 samples.

Results

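MicroRNAs (miRNAs) of the liver were compared with those of the striatum in wild-type (WT) mice. The libraries were chosen by the genotype and tissue in their titles. They were the 16 WT liver libraries and the 11 WT striatal libraries whose library name carries the number L7, together 27 of the 95 libraries of the series. The WT mice were littermates of heterozygous knock-in animals of the zQ175 Huntington's disease model, on a C57BL6/J background and aged 6 months, and carried no knock-in allele. They came from 2 lines, CHDI-81003003, whose knock-in allele keeps a neomycin resistance (neo) cassette, and CHDI-81003019, whose knock-in allele has lost it. Tissue was the left lobe of the liver and the left striatum, frozen at dissection. The liver group held 8 males and 8 females, 8 of each line. The L7 striatal group held 4 males and 7 females, 4 of them from the line without the cassette and 7 from the other. All 11 striatal animals also gave a liver library.

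MiRNAs are short RNAs cut from hairpin precursors by Drosha and Dicer. They guide Argonaute proteins to messenger RNAs that pair with the seed, the bases from position 2 to position 8 of the miRNA. The parenchymal cell of the liver, the hepatocyte, is known for miR-122, miR-192 and miR-194, while miR-124, miR-9, miR-128 and miR-138 mark neurons. The striatum is a forebrain nucleus made up mostly of medium spiny neurons and their glia, so the comparison sets an epithelial organ against nervous tissue.

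Reads of these mouse libraries had been assigned to hairpins of the human miRBase set. A value therefore belongs to a human hairpin entry, both arms together, and covers only mouse reads that match it. Counts per library ran from 74540 to 132842 (median 100173.5) in liver and from 103873 to 137797 (median 117174) in L7 striatum. Between 174 and 207 features had a count in a liver library, against 241 to 255 in an L7 striatal library. The meaning of the L number is not given in the labels. Liver libraries were L1, L2 or L3 and the striatal ones L7 or L8, so tissue and L number cannot be told apart in this comparison. Values are therefore set beside those of 5 L8 striatal libraries (297046 to 447856 counts) and of 8 WT cortical libraries with L1, the number that 4 of the liver libraries carry. Levels are counts relative to the library's total, in CPM. They are not divided by hairpin length, since a read holds a whole small RNA. A log2 difference is liver minus striatum from the edgeR fit with trimmed-mean scaling, in which the median over all features was -0.81.

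The tissue labels were checked on marker miRNAs. Summed over mir-122, mir-192, mir-194-1 and mir-194-2, liver libraries held 174964 to 249939 CPM, against 578 to 1231 CPM in L7 striatum. Summed over the 10 hairpins of miR-124, miR-9, miR-128 and miR-138, liver libraries held 12.25 to 178.9 CPM, against 89362 to 102012 CPM in L7 striatum. Among these, mir-122 was all but empty in both tissues, as described with the liver miRNAs, and mir-124-2 had no count in either tissue.

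The sequences of the miRNAs that the results turn on follow, from RefSeq for mouse assembly GRCm38.p6, each 5′ to 3′ with the seed in capitals. The arm printed is the well-known one of each hairpin, since the counts do not separate arms. Apart from 3 features left without a name, 161 of the 184 tested features had a mouse counterpart in the RefSeq table, and mir-122 and mir-187 are among the members named only. The first set stands higher in liver, and miR-192 and miR-215 carry the same seed.
miR-192-5p: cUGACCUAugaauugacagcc
miR-215-5p: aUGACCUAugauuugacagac
miR-194-5p: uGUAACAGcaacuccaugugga
miR-148a-3p: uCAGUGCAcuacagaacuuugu
miR-10a-5p: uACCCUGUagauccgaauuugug
miR-802-5p: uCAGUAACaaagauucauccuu
These lie at chr19:6264857-6264877 (miR-192-5p, plus strand), chr1:185313610-185313630 (miR-215-5p, plus), chr19:6264658-6264679 (miR-194-5p, plus), chr6:51269829-51269850 (miR-148a-3p, minus), chr11:96317186-96317208 (miR-10a-5p, plus) and chr16:93369737-93369758 (miR-802-5p, plus).

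The next set stands lower in liver and is abundant in striatum.
miR-127-3p: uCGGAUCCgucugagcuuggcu
miR-138-5p: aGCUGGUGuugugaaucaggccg
miR-9-5p: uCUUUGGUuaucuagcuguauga
miR-128-3p: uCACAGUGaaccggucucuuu
miR-181a-5p: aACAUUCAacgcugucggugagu
These lie on the plus strand at chr12:109592888-109592909 (miR-127-3p), chr9:122682898-122682920 (miR-138-5p), chr13:83738821-83738843 (miR-9-5p), chr1:128202404-128202424 (miR-128-3p) and chr1:137966468-137966490 (miR-181a-5p), each at 1 of its hairpins.

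The last set shows miRNAs that carry the same seed but lie on opposite sides of the comparison, in the order miR-25 with miR-92, miR-28 with miR-708 and miR-130 with miR-301.
miR-92a-3p: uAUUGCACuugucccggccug
miR-25-3p: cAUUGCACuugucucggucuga
miR-92b-3p: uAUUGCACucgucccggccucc
miR-28a-5p: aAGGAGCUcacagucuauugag
miR-708-5p: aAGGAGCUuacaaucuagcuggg
miR-130a-3p: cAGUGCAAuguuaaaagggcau
miR-301a-3p: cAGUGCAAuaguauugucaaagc
These lie at chr14:115044476-115044496 (miR-92a-3p, plus strand), chr5:138165332-138165353 (miR-25-3p, minus), chr3:89227126-89227147 (miR-92b-3p, minus), chr16:24827868-24827889 (miR-28a-5p, plus), chr7:96249450-96249472 (miR-708-5p, plus), chr2:84741116-84741137 (miR-130a-3p, minus) and chr11:87113054-87113076 (miR-301a-3p, plus).

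The 2 tissues differed in nearly every miRNA that could be tested. Of 184 features that passed the filter on low counts, 179 (97.3%) passed an adjusted p of 0.05, of which 71 (38.6%) stood higher and 108 (58.7%) lower in liver. At a difference of 4-fold or more, 38 (20.7%) were higher and 72 (39.1%) lower in liver. The libraries of the tissues did not overlap at all in 42 features (22.8%) that were higher and 100 (54.3%) that were lower in liver. With calls this frequent, a call alone says little about a single miRNA, and the sizes of the differences carry the description. A feature with low counts passed the filter only through the tissue in which it was high. Within L1, liver against cortex called 171 of 188 features (91%), 61 higher (32.4%) and 110 lower (58.5%) in liver. Against the 5 L8 striatal libraries, calls numbered 184 of 201 features (91.5%), 71 higher (35.3%) and 113 lower (56.2%) in liver.

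**Figure D1:**
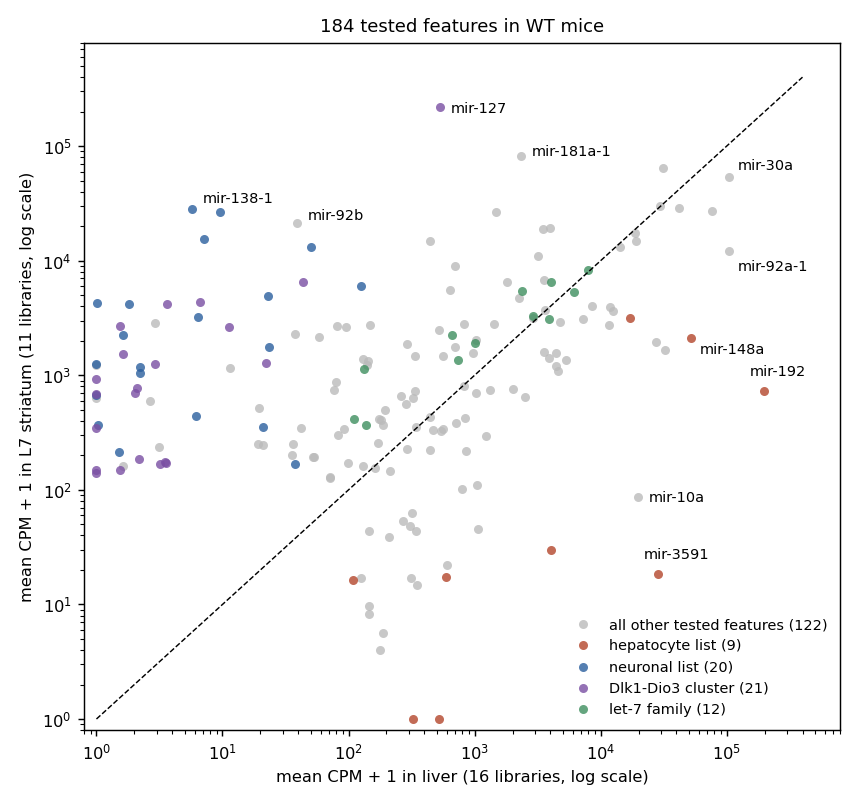
Mean CPM plus 1 of the 184 tested features, with liver (16 libraries) on the x axis and L7 striatum (11 libraries) on the y axis, both on log scales. Colours mark 4 lists of hairpins and the dashed line marks equal levels: neuronal and Dlk1-Dio3 hairpins lie far above the line, hepatocyte hairpins below it and the let-7 family along it.

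Liver libraries were led by fewer species. The most abundant feature of liver, mir-192, took 19.9% ± 2.16 of the counts (SD, n = 16), and the 10 most abundant took 70% ± 1.12. In L7 striatum the leading feature, mir-127, took 21.9% ± 1.05 (SD, n = 11), and the 10 most abundant took 58.8% ± 0.788. After mir-192, the most abundant features of liver were mir-92a-1, mir-30a, mir-22 and mir-148a. After mir-127, those of striatum were mir-181a-1, mir-26a-1, mir-30a and mir-30d. Only mir-30a, of a family that is broadly expressed, was among the 5 most abundant of both tissues. In bulk tissue, fewer cells of a type and less RNA per cell cannot be told apart.

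Hepatocyte miRNAs were the most prominent group on the liver side. Of 13 hairpins listed for hepatocytes, 9 passed the filter, and all 9 were called higher in liver (38.6% of all tested features were). None of the 9 overlapped with striatum (22.8% of all tested features were higher in liver without overlap). Their median log2 difference was 7.47, against -0.81 over all features. It was 7.12 with the 2 members that had no striatal count set at the bound that 3 counts allow. Those 2, mir-215 and mir-802, passed the filter only through liver, as did mir-3591, both miR-194 hairpins and mir-193a. For these the filter largely fixed the direction. The list was chosen with earlier results of these data known and includes mir-3591, which held the reads of the miR-122 locus. The list's summed level ran from 272487 to 344551 CPM in liver (median 301126), against 5267 to 7393 CPM in L7 striatum (median 6184). The 4 members that did not pass, mir-122, mir-33a, mir-365a and mir-365b, averaged at most 78.3 CPM in liver and 64.5 CPM in striatum. Of these, mir-365a and mir-33a had the higher mean in striatum. Estimates of mir-365a and mir-365b were not whole in some libraries, so the split of reads between these copies is uncertain.

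The miR-192/215 family and its genomic neighbour miR-194, known in liver and gut epithelium and induced by p53, supplied most of that level. The hairpin mir-192 (MI0000234) stood at 171267 CPM in the lowest liver library, 199055 CPM in the median one and 245587 CPM in the highest. In L7 striatum it stood at 555 CPM in the lowest library, 639 CPM in the median one and 1184 CPM in the highest. Every liver library lay far above every striatal library, by a log2 difference of 8.45 (SE 0.15, adjusted p = 7.54e-28). The related mir-215, which carries the same seed in the printed sequences, ran from 213 to 448 CPM in liver (median 312) and had no count in any of the 11 L7 striatal libraries. Against the 2.33 CPM that 3 counts over those libraries allow, it was at least 139-fold higher in liver (adjusted p = 1.32e-17). The miR-194 hairpins followed. In liver mir-194-2 ran from 2500 to 6129 CPM (median 3839.5), against 4.15 to 102 CPM (median 22.5) in striatum, a log2 difference of 7.47 (SE 0.25). Its copy mir-194-1, which yields the same miRNA, had a median of 581.5 CPM in liver against 19.1 CPM in striatum.

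On mouse chromosome 19, Mir192 and Mir194-2 sit within chr19:6264643-6264932 (GRCm38, plus strand), and on chromosome 1 Mir215 and Mir194-1 sit within chr1:185313319-185313692. In liver the level of mir-192 was far above that of mir-215, although each lies beside a miR-194 hairpin. Estimates of mir-192, mir-215 and the miR-194 hairpins were not whole in some libraries, so that part of their reads was shared out between like hairpins by the authors' counting. Summed, the miR-194 hairpins averaged 4639 CPM in liver and 45.05 CPM in striatum, with a difference of 6.82 on the log2 scale (SE 0.19, adjusted p = 8.03e-26).

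The reads of the miR-122 locus, the textbook hepatocyte miRNA, were listed under mir-3591 (MI0017383), a human hairpin annotated on the opposite strand of the same locus. It ran from 22665 to 36231 CPM in liver (median 28016), against 0 to 68 CPM in L7 striatum (median 7.87). No liver value came near a striatal one, and the log2 difference of 10.95 (SE 0.32, adjusted p = 3.41e-23) was the largest on the liver side among features of at least 100 CPM. The entry mir-122 itself had 7 counts, all in 1 liver library. Which strand the reads came from cannot be told from the tables, so that the value is that of the locus and not of either strand.

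The other hepatocyte members differed by smaller factors or stood at lower levels. In liver mir-148a, a miRNA linked to lipoprotein receptor control, ran from 44034 to 70149 CPM (median 50207), against 1685 to 2865 CPM (median 2012) in striatum. The log2 difference was 4.97 (SE 0.09, adjusted p = 7.54e-28). Relatives with the same seed, mir-148b and mir-152, were also higher in liver, with log2 differences of 1.79 and 3.35. In liver mir-378a, which is encoded within a gene of mitochondrial metabolism (Ppargc1b), ran from 13490 to 21370 CPM, against 2842 to 3381 CPM in striatum (log2 2.80, SE 0.06). In liver mir-802, a miRNA linked to hepatic insulin sensitivity, ran from 144 to 1231 CPM (median 481), and it had no count in L7 striatum. It was at least 224-fold higher in liver (adjusted p = 1.12e-11).

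Further miRNAs of the liver side were not on the hepatocyte list. In liver mir-10a, encoded in the HoxB cluster and known for posterior body position, ran from 12157 to 24616 CPM (median 19411), against 17.1 to 229.5 CPM (median 77.02) in striatum. Its log2 difference was 8.21 (SE 0.22, adjusted p = 3.74e-24). Its relative mir-10b, from the HoxD cluster, was higher too, at a median of 170.0 CPM in liver against 9.40 CPM in striatum (log2 4.60, SE 0.42). The liver mean of mir-10b was 112.6 CPM in the line without the neo cassette and 509.3 CPM in the other. The edgeR interaction test with line did not call it (adjusted p = 0.831). The L8 striatal libraries held 33.98 to 84.85 CPM of mir-10b, which overlapped liver values from 60.45 CPM. Within L1, the liver to cortex difference was 7.72 for mir-10a and 1.20 for mir-10b (adjusted p = 0.06745). Also among the 10 largest were mir-200b, a miRNA of epithelia (153.6 CPM in the median liver library against 0 in the median striatal one, log2 5.38), and mir-3120, annotated opposite mir-214 (171.4 against 0 CPM, log2 5.65). The feature MI0017343, which was left without a name, had medians of 600.0 CPM in liver and 24.1 CPM in striatum (log2 5.05).

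**Figure D2:**
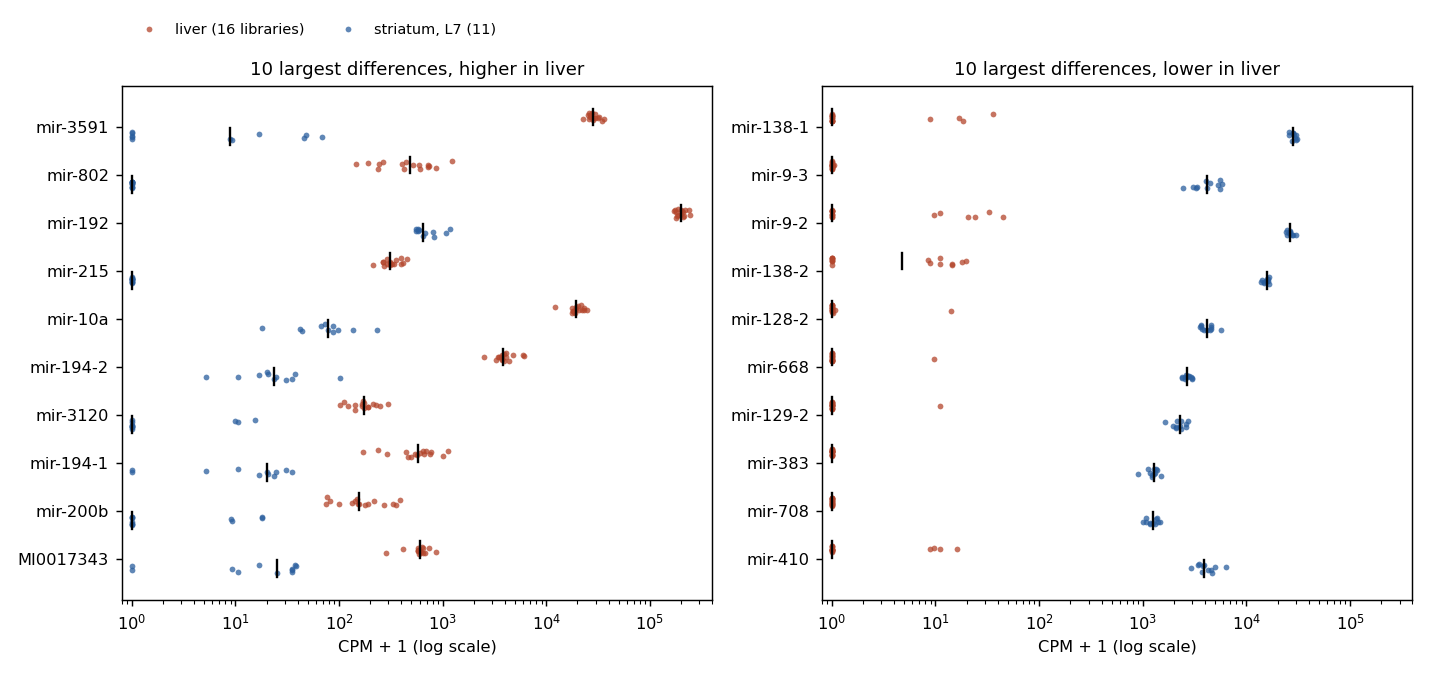
CPM plus 1 (log scale) in each liver library (upper row of points per feature) and each L7 striatal library (lower row) for the 10 largest differences in each direction among non-overlapping features with a mean of at least 100 CPM. Black ticks are medians, points at 1 are libraries without a count, and no liver library overlaps a striatal one in any of the 20 features.

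Large differences on the striatal side belonged to neuronal miRNAs. Of 28 hairpins listed as neuronal, 20 passed the filter. Among these, 19 were lower in liver by 4-fold or more (39.1% of all tested features were). All 20 were called lower in liver (58.7% of all tested features were). Their median log2 difference was -8.72, or -8.53 with the 4 members without a liver count set at their bound. Except for mir-187, the tested members passed the filter only through striatum, so the filter largely fixed their direction. The 5 further members with a count in either tissue did not pass the filter, and each had the higher mean in striatum. Summed, the list held 200.4 to 465.8 CPM in liver libraries, against 110151 to 122578 CPM in L7 striatum.

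The hairpins of miR-138 and miR-9 had the lowest fitted differences. MiR-138 is a brain miRNA known for limiting dendritic spine growth. In liver mir-138-1 had a count in 4 of 16 libraries and at most 34.8 CPM, against 25492 to 30701 CPM (median 28254) in striatum. Its log2 difference was -11.73 (SE 0.25, adjusted p = 1.32e-26), and its copy mir-138-2 lay at -10.72 (SE 0.19). Summed over both hairpins, miR-138 averaged 10.9 CPM in liver against 43877.5 CPM in striatum. In the L1 cortical libraries mir-138-1 averaged 8433 CPM, and the liver to cortex difference was -9.83. The L8 striatal libraries held 15753 to 17928 CPM of it, below those of L7. Brain region and L number cannot be told apart in the cortical value.

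MiR-9, which acts on neural progenitors and neuronal differentiation, differed to a like extent. In liver mir-9-2 had a count in 6 of 16 libraries and at most 43.3 CPM, against 23962 to 29991 CPM (median 26383) in striatum (log2 -11.02, SE 0.26). In liver mir-9-3 had no count, and with 2455 to 5776 CPM in striatum its liver level was lower by at least 2303-fold (adjusted p = 1.29e-13). Copies of a miRNA share their reads in this counting, so the split between mir-9-2 and mir-9-3 is uncertain. The sum of the miR-9 hairpins, 8.58 CPM in liver and 31356 CPM in striatum, differed by a log2 of -11.43 (SE 0.20, adjusted p = 4.05e-31).

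MiR-128, another miRNA of mature neurons, was present in liver at a low level. In liver mir-128-1 ran from 11.83 to 105.4 CPM (median 45.55), with a count in every library, against 10942 to 15638 CPM (median 12982.5) in striatum. The log2 difference was -7.67 (SE 0.18, adjusted p = 1.60e-25). Its copy mir-128-2 had 2 counts over all 16 liver libraries, against 3591 to 5722 CPM in striatum. MiR-124, the most used neuronal marker, was less abundant in these libraries: mir-124-1 had a count in 4 liver libraries, and ran from 2567 to 3727 CPM in striatum (log2 -8.56, SE 0.27).

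Other hairpins without a liver count, or with a single one, were also among the 10 largest differences. Of these, mir-708 was not on the neuronal list. In liver mir-383 and mir-708 had no count, against medians of 1268 and 1255 CPM in striatum. The liver level was lower by at least 672.9-fold for mir-383 (adjusted p = 3.65e-14) and by at least 668.4-fold for mir-708 (adjusted p = 2.83e-15). In liver mir-129-2 had 1 count in all, against 1629 to 2718 CPM in striatum (adjusted p = 7.54e-28). In liver the activity-regulated mir-132 and mir-212, which share a precursor transcript, had medians of 23.7 and 24.1 CPM, against 4833 and 1734 CPM in striatum.

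The level of mir-187 was high in L7 striatum but not in L1 cortex. In liver it ran from 90.2 to 180.7 CPM (median 118.0), against 5177 to 7219 CPM (median 6017) in L7 striatum and 36.24 to 502.9 CPM in L1 cortex. The liver to striatum difference was -5.19 (SE 0.10, adjusted p = 3.29e-27), while that of liver to cortex within L1 was 0.28 (adjusted p = 0.6625). Of the 10 largest differences on the striatal side, in contrast, all stood at 873 CPM or more on average in L1 cortex, and all were called in the same direction there.

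MiRNAs of the Dlk1-Dio3 locus formed the largest block that was low in liver. This imprinted domain expresses long noncoding RNAs and a miRNA cluster from the maternal chromosome, and the cluster is active in the embryo and in the adult brain. Of 42 hairpins listed, 21 passed the filter, and all 21 were called lower in liver (58.7% of all tested features were). Each was lower by more than 4-fold (39.1% of all tested features were) and without overlap (54.3% were). Their median log2 difference was -7.88, or -7.54 with the 5 members without a liver count at their bound, and they ran from -10.31 to -4.99. Except for mir-127, the tested members passed the filter only through striatum, so the filter largely fixed their direction. A further 14 members had a count but did not pass, and each of these had the higher mean in striatum. Summed, the listed members held 268 to 1287 CPM in liver, against 231061 to 266205 CPM in L7 striatum. A large share of all striatal counts thus came from this domain.

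Most of that sum was a single miRNA. In liver mir-127, which lies antisense to the retrotransposon-like gene Rtl1, ran from 180.7 to 1160 CPM (median 461), against 202854 to 236201 CPM (median 217059) in striatum. Every liver library lay far below the lowest striatal one, and the log2 difference was -8.41 (SE 0.23, adjusted p = 5.30e-24). In liver mir-410 had a count in 4 libraries and at most 15.1 CPM, against 2944 to 6318 CPM in striatum (log2 -9.68, SE 0.23). In liver mir-668 had 1 count in all, against 2364 to 2997 CPM in striatum (adjusted p = 4.09e-28). The 21 tested members lie on the plus strand of mouse chromosome 12, 20 of them in 2 stretches. The first, chr12:109590447-109595388, holds mir-431, mir-433, mir-127 and mir-136, with log2 differences of -9.54 to -7.36. The second, chr12:109709060-109743795, holds 16 tested hairpins from mir-379 to mir-410, with log2 differences of -10.31 to -4.99. Between the stretches lies mir-370 (chr12:109618258-109618336), which had no liver count and 251.9 to 449.8 CPM in striatum.

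**Figure D3:**
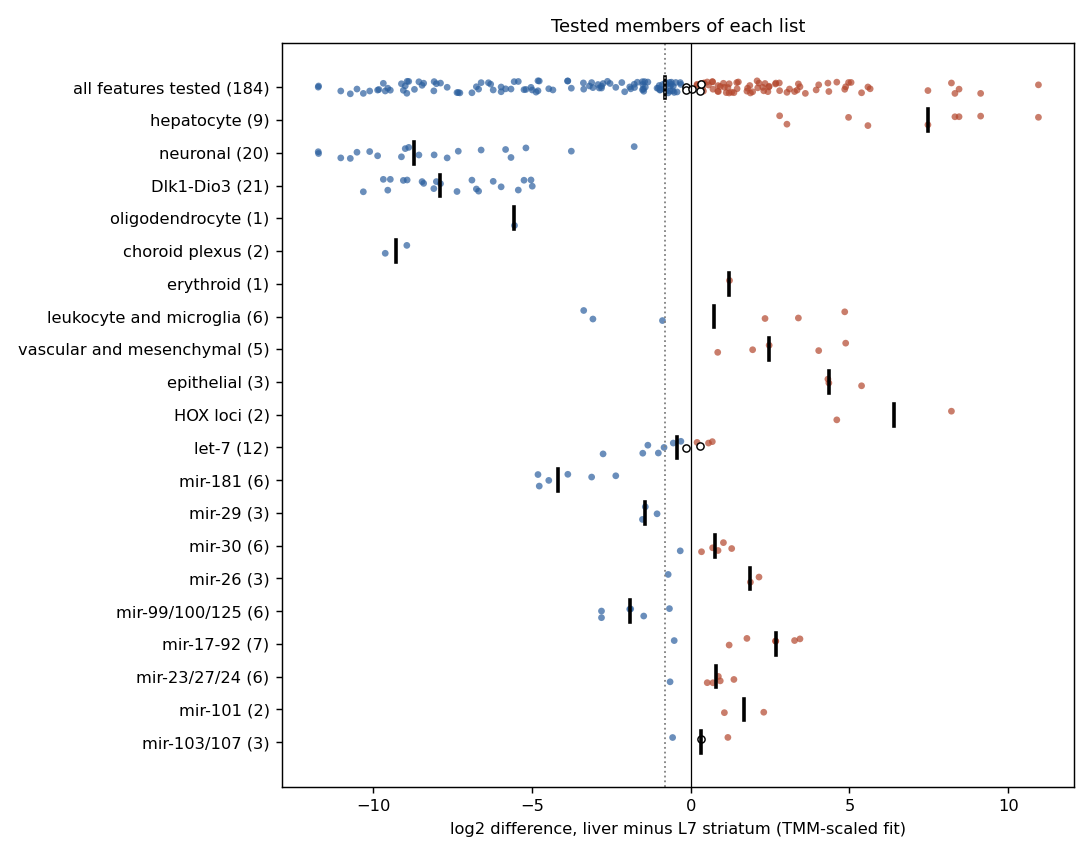
Log2 difference, liver minus L7 striatum, of every tested member of each list (number tested in parentheses), with all 184 tested features in the top row. Red points were called higher and blue points lower in liver, open points were not called, black ticks are medians, and the dotted line is the median of all features (-0.81); hepatocyte members lie on the right and neuronal, Dlk1-Dio3 and miR-181 members on the left without exception.

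The miR-181 family, abundant in both brain and lymphoid tissue, was called lower in liver in all 6 of its hairpins (58.7% of all tested features were), with log2 differences of -4.81 to -2.36. Summed over the family, liver libraries held 3425 to 6268 CPM, against 120617 to 141550 CPM in L7 striatum. In liver mir-181a-1 ran from 58.4 to 4596 CPM (median 2499), against 72693 to 97978 CPM (median 78698) in striatum. The sum of the miR-181a hairpins varied less, with a log2 of -4.67 and an SE of 0.07, against an SE of 0.42 for mir-181a-1 alone. The family of miR-99, miR-100 and miR-125 was also called lower in all 6 hairpins, beside the same 58.7%, with a median of -1.90, and mir-125a had medians of 3451 CPM in liver and 19370 CPM in striatum. The 3 tested miR-29 hairpins lay between -1.52 and -1.06.

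MiRNAs on the liver side also came in families. The miR-17-92 cluster and its paralogs, known for promoting cell proliferation, were called higher in liver in 6 of 7 tested hairpins (38.6% of all tested features were), with a median of 2.67. In liver mir-92a-1 ran from 86832 to 125544 CPM (median 104244), against 10447 to 14734 CPM (median 11908) in striatum (log2 3.44, SE 0.07, adjusted p = 1.82e-26). The cluster's low-abundance members mir-17 and mir-20a had medians of 322 and 278 CPM in liver against 74.7 and 51.2 CPM in striatum. The exception was mir-106b at -0.52 (SE 0.21, adjusted p = 0.0208), whose libraries overlapped. It was not called within either sex or either line. In liver the abundant mir-22 ran from 51046 to 96841 CPM (median 76039), against 23623 to 31416 CPM in striatum (log2 1.86, SE 0.08).

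Families that are expressed in most tissues mostly differed little. Of all tested features, 38.6% were called higher and 58.7% lower in liver, and the counts below stand beside these shares. Among 12 let-7 hairpins, 3 passed the test as higher and 7 as lower in liver, with a median log2 difference of -0.43 and a summed level of 23419 to 34054 CPM in liver against 34932 to 42521 CPM in striatum. Only let-7e was lower by 4-fold or more (-2.76, SE 0.17). Of 6 miR-30 hairpins, 5 were called higher in liver, with differences of 0.34 to 1.29 (mir-30d, the smallest, turned to -0.01 with total counts), and mir-30b was lower (-0.33). In liver mir-30a ran from 88075 to 116191 CPM, against 46503 to 59001 CPM in striatum (log2 1.29, SE 0.05). In liver mir-30d had a mean of 29771 CPM, against 30066 CPM in striatum, so that its log2 difference of 0.34 rests on the scaling. Of the miR-23/27/24 hairpins 5 of 6 were called higher by 0.52 to 1.36, but against L8 striatum none of these 5 was, with mir-27b at -0.25 and mir-24-2 at -0.95 (adjusted p = 0.000231). Within L1, mir-24-2 lay at -1.21 and mir-23a at -0.40 against cortex. Both miR-101 hairpins were called higher, mir-101-1 by 1.06 and mir-101-2 by 2.30. Against L8 striatum mir-101-1 was not called (0.25, adjusted p = 0.2094 in the edgeR test). The hairpins of miR-103 and miR-107 went in both directions.

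MiRNAs with the same seed lay on the same side in some groups and on opposite sides in others. The 161 matched features held 30 groups of hairpins, 87 features in all, that share the seed of an arm. In 19 groups all members were called in 1 direction, and in 11 groups members were called in both. The 20 named features without a match were left out, so a group can be incomplete. The miR-30 group counted as 1 direction from 4 hairpins, without mir-30b, which was called lower in liver (-0.33). With 38.6% of all features called higher and 58.7% lower, agreement within small groups is common, and no test of it was made. Of the 19 groups 7 hold only copies of 1 miRNA, against 1 of the 11. Separate values of such copies are uncertain because reads are shared: mir-26a-1 lay at -0.71 and mir-26a-2 at 2.15, while their sum lay at -0.48 (SE 0.05). Position was compared in the same way. Of 24 groups of hairpins within 10 kb of each other on 1 strand, 20 had called members in 1 direction only, and 4 had members in both, among them mir-25, mir-93 and mir-106b.

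The miR-25/92 seed gave one of the widest contrasts within a group. In liver mir-92b, first known from neural progenitors, ran from 0 to 71.04 CPM (median 37.2), against 19057 to 23594 CPM (median 21114) in striatum. At -8.70 on the log2 scale (SE 0.18, adjusted p = 1.04e-26) it lay opposite to mir-92a-1 at 3.44, mir-92a-2 at 2.27 and mir-25 at 1.21. In the printed sequences miR-92a-3p and miR-92b-3p differ at 2 of the 21 positions both have, counted from the 5′ end and written with the miR-92a base first, U10C and G21C. Both lie outside the seed. Summed, the miR-92a hairpins averaged 109797 CPM in liver and 13439.5 CPM in striatum.

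The seed of miR-28 and miR-708 gave the widest contrast. In liver mir-28 had a median of 204.6 CPM and at most 320.4 CPM, against 16.2 to 58.3 CPM (median 42.5) in striatum (log2 2.79, SE 0.18). Its seed relative mir-708 had no liver count and a median of 1255 CPM in striatum. In the group of miR-130 and miR-301, liver libraries held 738 to 1464 CPM of mir-130a, against 51.2 to 166.0 CPM in striatum (log2 3.61, SE 0.14). In liver mir-301a ran from 90.2 to 214.6 CPM, against 1144 to 1574 CPM in striatum (log2 -2.92, SE 0.11). The members of both groups lay on the same sides against the L1 cortical libraries. Log2 differences there were 2.54 for mir-28, -9.80 for mir-708, 3.45 for mir-130a and -2.60 for mir-301a. As mir-708 had no liver count, the size of its fitted difference depends on how zeros are handled.

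**Figure D4:**
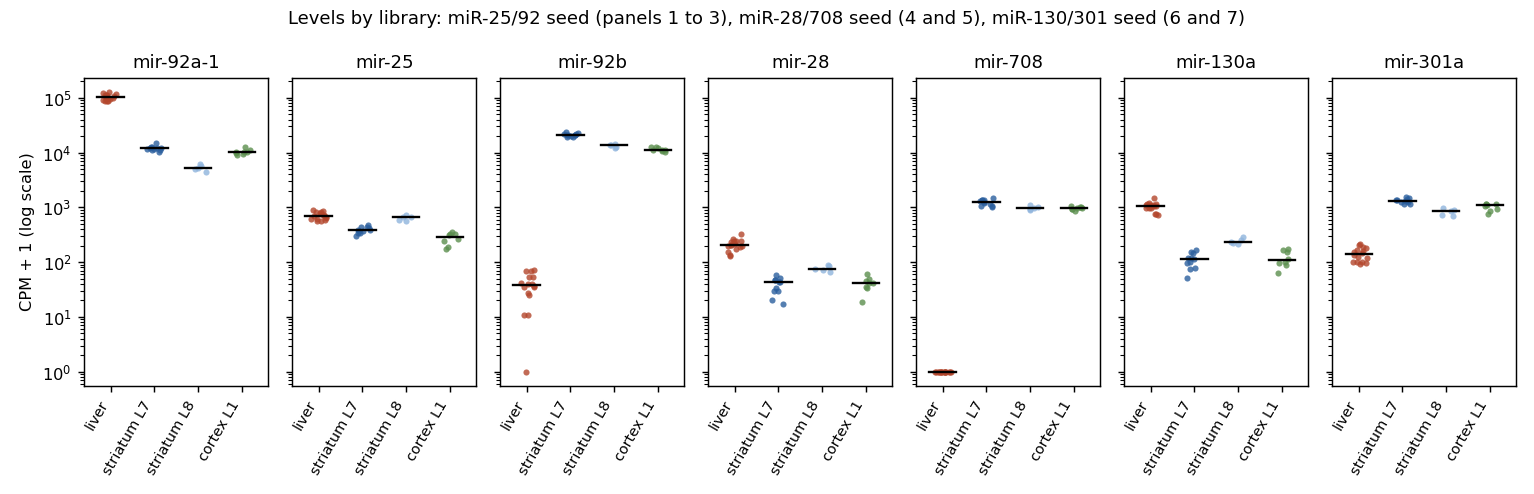
CPM plus 1 (log scale) by library for 7 hairpins of 3 seed groups, in liver (16 libraries), L7 striatum (11), L8 striatum (5) and L1 cortex (8), with medians as black bars. Within each seed group, 1 hairpin is highest in liver and another is lowest in liver, in all 3 sets of brain libraries.

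Markers of other cell types of both tissues moved too, and their part in the differences above was not tested. Of the listed oligodendrocyte hairpins only mir-338 could be tested. The entry mir-219a-1 stayed low in both tissues, with a mean of 9.71 CPM in liver and 5.53 CPM in striatum. The entry mir-219b, which was not on the list, ran from 0 to 10.07 CPM in liver and from 401 to 820.3 CPM in striatum. The hairpin mir-338 had 11.83 to 88.98 CPM in liver, against 1824 to 2838 CPM in striatum (log2 -5.56, SE 0.17). In liver the choroid plexus hairpin mir-204 had 3 counts in all and mir-1298 had none, against medians of 2877 and 624 CPM in striatum. Of 6 tested leukocyte and microglia hairpins 3 were called higher and 3 lower in liver (38.6% and 58.7% of all tested features were). In liver the myeloid mir-223 and the pan-leukocyte mir-142 had medians of 339 and 732 CPM, against 9.63 and 91.3 CPM in striatum. In liver mir-150 and mir-342 had medians of 76.9 and 626 CPM, against 882 and 8718 CPM in striatum, although the first is best known from lymphocytes.

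All 5 tested vascular and mesenchymal hairpins were called higher in liver (38.6% of all tested features were), with a median of 2.47. In liver the endothelial mir-126 ran from 5706 to 18285 CPM, against 1938 to 3454 CPM in striatum (log2 2.47, SE 0.15). In liver mir-199a-1, known from hepatic stellate cells and fibroblasts, ran from 719 to 1497 CPM, against 23.6 to 84.6 CPM in striatum (log2 4.88, SE 0.16). In liver the smooth muscle mir-143 ran from 6406 to 18864 CPM, against 2968 to 4978 CPM in striatum (log2 1.95, SE 0.12). Within L1 it differed by less (0.53, adjusted p = 0.05045). The erythroid hairpin mir-486-1 overlapped between the tissues (log2 1.21, SE 0.39, adjusted p = 0.00469). With the animal as a block it lost its call (0.90, adjusted p = 0.08186). Summed with its copy mir-486-2, it differed by 1.25 (SE 0.12, adjusted p = 1.59e-11). The erythroid mir-144 did not pass the filter. It ran from 47.36 to 258.4 CPM in liver, against 0 to 28.65 CPM in striatum, without overlap. The 3 tested epithelial hairpins were called higher in liver (38.6% of all tested features were). In liver mir-182 ran from 10096 to 128152 CPM, against 837 to 2917 CPM in striatum (log2 4.35, SE 0.34). The highest value came from 1 liver library, male 3 of the neo-intact line, and the next was 51548 CPM. Without that library the log2 difference was 3.98. A further epithelial and endocrine hairpin, mir-375, did not pass the filter and lay the other way, with a mean of 9.25 CPM in liver and 109.7 CPM in striatum.

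The features nearest to the median difference, with at least 100 CPM in both tissues, were mir-874, let-7i, mir-221, mir-340 and mir-146b. They had log2 differences of -0.89 to -0.76 and did not overlap between the tissues. In liver mir-221, for example, ran from 1817 to 2567 CPM, against 3869 to 5833 CPM in L7 striatum. Against the L8 striatal libraries mir-221 lay at 0.25 and mir-874 at 0.09, while let-7i, mir-340 and mir-146b kept their direction at -0.94, -1.88 and -0.26.

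The tissue difference depended on sex for 5 of 184 features (2.72%), while 22 had an unadjusted p under 0.05. In male livers mir-21, an abundant miRNA of injury and growth responses, ran from 32238 to 52980 CPM, and in female livers from 13645 to 22971 CPM. In male striatum it ran from 1776 to 2125 CPM, and in female striatum from 1653 to 2260 CPM. The sexes did not overlap in liver and overlapped fully in striatum, and the liver to striatum difference was larger in males by a log2 of 1.22 (SE 0.18, adjusted p = 9.4e-05). With the animal as a block, over the 11 animals with both tissues, this was 1.10 (adjusted p = 0.0113). Of the 176 features in that fit mir-21 was the only one called, and mir-1247 was not among those tested.

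The other 4 features had differences of 1.65 for mir-149 (SE 0.30, adjusted p = 0.000641), -0.72 for mir-107 (SE 0.17, adjusted p = 0.0132), 3.58 for mir-381 and -1.80 for mir-1247, males minus females. In male livers mir-1247, a miRNA beside the Dlk1-Dio3 domain, ran from 52.7 to 165.3 CPM, and in female livers from 415 to 692 CPM. In striatum its values overlapped between the sexes, at 9.40 to 57.3 CPM in males and 15.7 to 80.97 CPM in females. In male livers mir-149 ran from 50.9 to 165.6 CPM, and in female livers from 12.3 to 64.9 CPM, with means of 2695 CPM in male and 2697 CPM in female striatum. In liver mir-381 had no count in the 8 females and at most 25.3 CPM in the 8 males, so its size depends on how zeros are handled. With DESeq2 size factors mir-1247 was not called (-1.79, adjusted p = 0.05898).

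**Figure D5:**
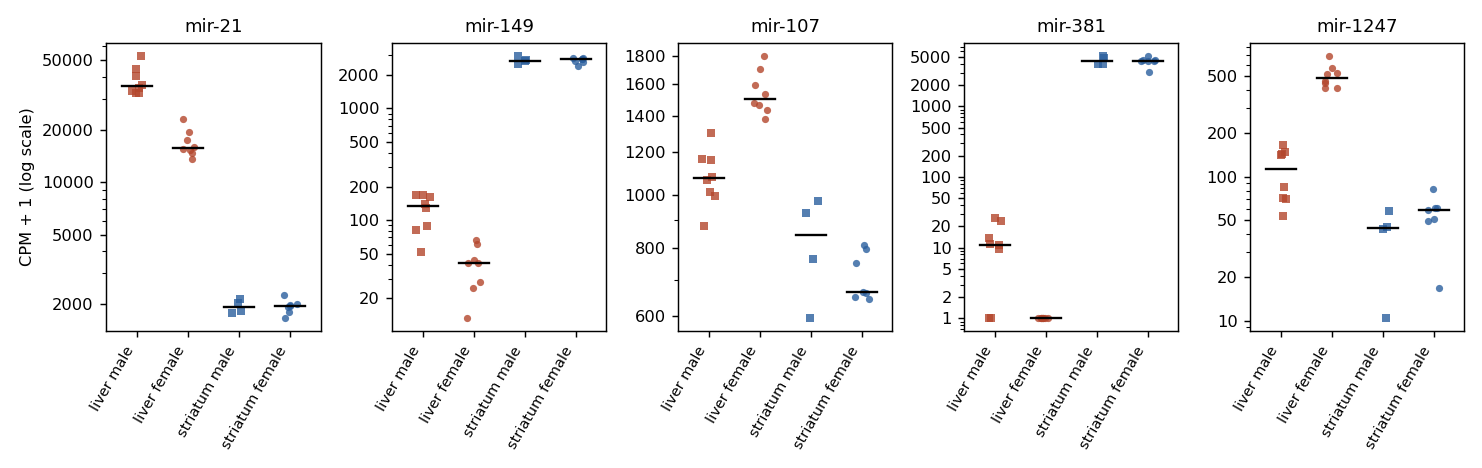
CPM plus 1 (log scale) by library in male and female livers (8 each) and in male (4) and female (7) L7 striatum for the 5 features whose tissue difference depended on sex, with medians as black bars. The sexes separate in liver for mir-21, mir-107 and mir-1247, while striatal values of the sexes overlap in all 5 features.

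Between the WT mice of the 2 lines the liver to striatum difference did not differ detectably. The edgeR interaction test called 0 of 184 features, and 10 had an unadjusted p under 0.05. With DESeq2 size factors and with the animal as a block 0 were called as well.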

How the data were processed

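Small RNA of 95 mouse libraries had been sequenced after enrichment from total RNA, per the labels' protocols. The submitters' processing notes name CASAVA 1.8.2 and mm10. The aligner and counter are not given in the sources used here. The authors deposited expected counts (estimated counts) per human miRBase hairpin, and a table of FPKM, from which hairpin lengths were inferred. Of 9172 deposited estimates of 1 or more, 28.4% were not whole (tolerance 0.005), so reads were shared between like hairpins.

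Expected counts were rounded and tested with edgeR 4.0.16 (R 4.3.3), by quasi-likelihood with TMM scaling, terms for line and sex, filterByExpr (minimum count 10, minimum total 15) and Benjamini-Hochberg adjustment over all 184 features tested, which held 99.75% of counts. Levels are plain CPM. The filter also sets which members could be tested. Bounds against a group with no count use 3 counts over the group, which is 1.85 CPM in liver and 2.33 CPM in L7 striatum, and cover counting error only. The scripts were tested on simulated data. Alternatives included DESeq2 1.42.0, limma 3.58.1, other scalings and filters, single lines, sexes and L numbers, and leaving out each library.

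The tables give accession numbers of hairpins. Names were assigned from knowledge of miRBase numbering and compared with the inferred lengths, 319 features in all, and no deposited table pairs them. Replicates are separate mice. Liver and striatum of 1 animal carry its label, and the 11 pairs had correlated deviations from their group means of -0.102 to 0.226 (median -0.00559). Features named are the 5 most abundant of each tissue, the 10 largest non-overlapping differences in each direction with a mean of at least 100 CPM, members of the lists, the 5 nearest the median, and some seed relatives and abundant features added later. Members and lists were chosen with earlier results of these data known.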

Additional observations from a re-analysis of the deposited data

Results flagged for a closer look

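Of 105 named features examined in the 5 L8 striatal libraries, 8 had 1 library apart from the other 4, by a gap that chance gives in about 1 in 20 groups. The library apart held 7742.9 CPM of mir-204, 1747.2 CPM of mir-1298, 7942.7 CPM of let-7c, 23272.5 CPM of mir-29a, 323.2 CPM of mir-142, 65.7 CPM of mir-199a-1, 24.11 CPM of mir-223 and 11.74 CPM of mir-194-1. These libraries served only as a check of the striatal values.

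The difference between liver and striatum itself differed between the sexes, by the interaction test, for 5 features. The log2 differences, male minus female, were 1.22 for mir-21, 1.65 for mir-149, 3.58 for mir-381, -0.72 for mir-107 and -1.80 for mir-1247. In liver mir-107 averaged 1082 ± 128 CPM in males and 1548 ± 144 CPM in females (SD, n = 8 each).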

How the results depend on the processing

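Of 5000 values of 105 named results under the alternatives, 4933 kept their direction and their side of the threshold, 56 lost the call, 3 gained one and 8 reversed. The reversals were mir-30d at -0.01 with total counts and at -0.01 with limma on log2(FPKM + 1) and on log2(FPKM + 0.1), and, against L8 striatum only, mir-874 at 0.09, mir-221 at 0.25, mir-27b at -0.25, mir-24-2 at -0.95 and mir-103a-2 at 0.63. The cause was not tested. The fits with the animal as a replicate block used the 11 animals with both tissues. In them the tissue difference by sex was called for 1 feature in place of 5, with mir-1247 not tested, and liver against striatum called 167 of 176 features. Leaving out each library in turn, 173 to 179 features were called (69 to 72 of them higher in liver), and 167 to 173 for liver against cortex. The count was 249 of 346 features with no filter, and 155 of 162 with paralogous hairpins summed, which was chosen after seeing the data. Over all features the median, -0.81 on the log2 scale, moved to -0.88 with DESeq2 size factors, to -1.17 with total counts and to -1.43 with L3 livers only. With total counts mir-27b lost its call (0.16), while let-7c (-0.66) and mir-106b (-0.87) grew. Some calls were lost without 1 library. These were mir-106b (-0.38 to -0.30) without liver neo-deleted F2, M2 or M4, liver neo-intact F1, M1 or M4 or striatum neo-deleted F1, let-7c (-0.14 to -0.11) without liver neo-deleted F4, M2 or M4 or neo-intact F1 or M1, and mir-30b (-0.18 to -0.15) without liver neo-deleted F2, F4, M2 or M4 or neo-intact F1 or M4. Without liver neo-intact M3, let-7f-2 gained a call (0.37). Depth limits a level without a count to 1.85 CPM over the liver group.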
